A study of Mus musculus with 4 samples.

Results

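The 10 genes described here make, lengthen and desaturate fatty acids or control that synthesis: Srebf1, Me1, Acaca, Acacb, Fasn, Elovl6, Scd1, Scd2, Fads1 and Fads2. They were chosen by gene symbol from the 24341 genes of the deposited expression table, and all 10 were present. The cells were CAD cells, a mouse catecholaminergic neuronal line that takes a neuron-like form without serum. All cultures were kept without serum for 5 days. The DMSO group (2 libraries) received the solvent for 24 h, and the ACSS2i group (2 libraries) received for 24 h an inhibitor of the acetyl-CoA synthetase ACSS2, a quinoxaline urea, at 20 µM. The comparison asked how the transcriptome differed when ACSS2 was inhibited. Nothing in the labels ties the replicates to separate cultures. The p-values therefore reflect the spread between these libraries alone, which may be technical.

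Fatty acid synthesis in the cytosol starts from acetyl-CoA, which comes from citrate through ATP-citrate lyase or from acetate through ACSS2. Acetyl-CoA carboxylase turns it into malonyl-CoA, and fatty acid synthase joins these units into palmitate with NADPH as the reductant. Elongases and desaturases then shape the chains that go into neuronal membranes. SREBP-1, the product of Srebf1, is a membrane-bound transcription factor that is cut free to switch on most of these genes, while the related SREBP-2 mainly serves cholesterol synthesis.

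Values were taken as FPKM, a read-fragment density corrected for transcript length and library size. The deposited values carry no unit and their adjustment is unexplained, so comparisons of level between genes rest on that assumption. The values summed to between 558458 and 675716 per library, lowest in ACSS2i replicate 1 and highest in ACSS2i replicate 2. The nominal depth was 11400000 and 3320000 reads in DMSO replicates 1 and 2, and 7700000 and 9770000 in ACSS2i replicates 1 and 2. Of 19 neuronal and catecholaminergic markers, 18 had a mean of at least 1 FPKM; Dbh, the noradrenaline-making enzyme, was the exception. Markers of other cells were low: 9 of 11 glial, 7 of 7 immune, 8 of 8 fibroblast and endothelial, and 8 of 9 adipocyte and liver markers had a mean under 1 FPKM. Adipoq, Fabp4, Lep and Alb stood at the floor of 0.01 in all 4 libraries. Ttr was the exception among the adipocyte and liver markers, at 0.391 and 0.01 FPKM in DMSO. It had 0.232 FPKM in ACSS2i replicate 1 and 5.199 FPKM in ACSS2i replicate 2.

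None of the tested genes passed the test between the groups. Of the 8 that reached a mean of 1 FPKM and entered the limma fit, 0 had an adjusted p under 0.05, against 0.0261% of all 11486 tested genes, and the smallest adjusted p was 0.816. At an unadjusted p under 0.05 the count was also 0 of 8, against 6.96% of all tested genes (3.29% higher and 3.67% lower). The groups overlapped in all 8, while 37.3% of tested genes had groups that did not (19.0% higher and 18.3% lower with the inhibitor). The median log2 difference of the 8 was 0.040, beside 0.020 over all tested genes. These averages come from inhibitor libraries that lay on opposite sides of the DMSO libraries.

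ACSS2i replicate 1 had the lowest value of the 4 libraries in 7 of the 8 genes, and ACSS2i replicate 2 the highest in 7 of the 8. For all tested genes, 36.8% had replicate 1 below both DMSO libraries and 39.0% had replicate 2 above both. In 6 genes, Fasn, Elovl6, Scd2, Fads1, Fads2 and Me1, both held at once, with replicate 1 below and replicate 2 above both DMSO libraries. This arrangement was found in 11.8% of all tested genes, and its mirror image in 11.4%. It was noticed in these data and is given as a description. After the libraries were rescaled to the same sum of FPKM it still held for 6 of the 8 members, and for 6.08% of all genes. Relative to the DMSO mean, the median over the 8 genes was -0.50 in ACSS2i replicate 1 and 0.53 in ACSS2i replicate 2, where all tested genes had medians of 0.0095 and 0.013. In bulk RNA such a gap cannot be divided into the number of expressing cells and the RNA per cell.

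**Figure D1:**
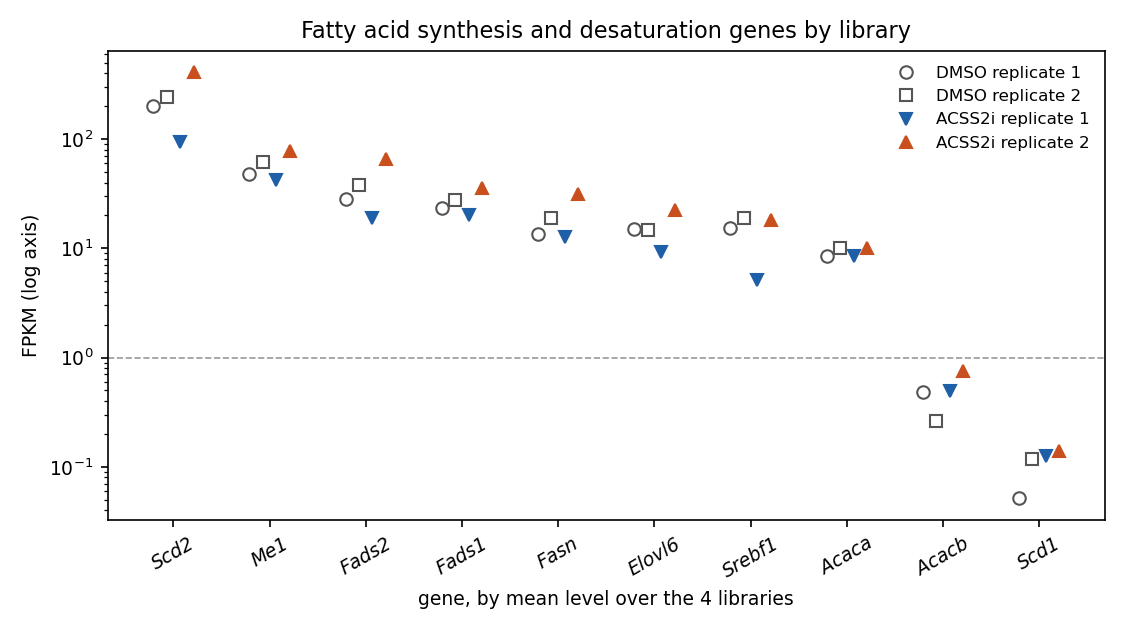
FPKM (log axis) of the 10 genes in each library; open symbols are DMSO, filled symbols ACSS2i, and the dashed line marks 1 FPKM, the minimum mean for testing. In 6 genes ACSS2i replicate 1 (downward triangle) lies below and replicate 2 (upward triangle) above both DMSO libraries.

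Srebf1, the transcription factor gene of the pathway (GRCm38, chromosome 11, 60199089 to 60222581, minus strand), stood at 15.5 and 19.0 FPKM in DMSO replicates 1 and 2. It was at 5.11 FPKM in ACSS2i replicate 1 and at 18.0 FPKM in ACSS2i replicate 2. The first inhibitor library was thus far below the other 3, while the second fell between the DMSO libraries. The log2 difference between groups was -0.75 ± 0.53 (SE; 95% confidence interval -2.04 to 0.54; limma, adjusted p = 0.816). Relative to the DMSO mean it was -1.57 in replicate 1, with 0.958% of tested genes lower still, and 0.066 in replicate 2. Srebf1 was the only member whose ACSS2i replicate 2 value did not exceed both DMSO values.

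Srebf2, which encodes SREBP-2, had 24.2 and 28.2 FPKM in DMSO, 13.8 in ACSS2i replicate 1 and 33.2 in ACSS2i replicate 2. The ratio of Srebf1 to Srebf2 was 0.638 and 0.675 in DMSO, 0.371 in ACSS2i replicate 1 and 0.541 in ACSS2i replicate 2. Both inhibitor libraries therefore had less Srebf1 per Srebf2 than either DMSO library. The components differed by library: in replicate 1 both genes were below both DMSO libraries. In replicate 2 Srebf2 was above both and Srebf1 between them. For this ratio and those given below, no share over other gene pairs was computed.

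The promoters of Srebf1 and Fasn are shown because the regulator and a classical target of it differed in ACSS2i replicate 2, where Fasn was above and Srebf1 within the DMSO values. RefSeq sequences (GRCm38.p6) were matched for 7 of the 10 members, in 10 windows; Fads1, Scd1 and Scd2 were not matched. Each run gives the 250 bases before a listed start, 5′ to 3′ on the gene's strand, with matches on either strand to CCAAT (bound by NF-Y) and GGGCGG (the GC box bound by Sp1) in capitals. NF-Y and Sp1 are known partners of SREBPs at lipid gene promoters. Srebf1 has 3 listed starts, and the most downstream is shown, at chr11:60210472-60210721 (minus strand). The Fasn window is chr11:120824548-120824797 (minus strand).
Srebf1: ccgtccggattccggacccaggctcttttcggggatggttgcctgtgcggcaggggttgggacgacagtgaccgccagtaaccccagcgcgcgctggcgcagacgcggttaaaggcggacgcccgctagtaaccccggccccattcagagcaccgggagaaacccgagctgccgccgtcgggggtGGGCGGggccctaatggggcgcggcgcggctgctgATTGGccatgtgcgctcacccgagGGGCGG
Fasn: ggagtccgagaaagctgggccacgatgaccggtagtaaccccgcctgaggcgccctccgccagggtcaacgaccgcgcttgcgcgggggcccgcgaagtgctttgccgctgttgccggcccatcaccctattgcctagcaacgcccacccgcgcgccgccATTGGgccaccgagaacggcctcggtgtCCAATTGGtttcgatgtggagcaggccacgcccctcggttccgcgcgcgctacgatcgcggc
The Fasn window holds 3 CCAAT matches, the last 2 of which overlap on opposite strands. Their first bases lie 90, 62 and 59 bases before the start. The Srebf1 window holds 1 CCAAT match, 30 bases before the start, and 2 GC boxes, 65 and 6 bases before it. CCAAT was found in 33.8% and GGGCGG in 32.7% of the 32851 windows of this length, so neither is rare. The E-box CACGTG (6.02% of windows) and the sterol regulatory motif TCACNCCAC (1.05%) were found in 0 of the 10 member windows. With motifs this uncommon and 10 windows, 0 matches cannot show that SREBP sites are absent. Only these exact letters were matched, so variant sites were not counted. Some windows also lie inside the gene, such as the Srebf1 window shown and that of Acaca (chromosome 11, 84195188 to 84195437). The FPKM values are per gene and do not separate the Srebf1 starts.

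Me1, the cytosolic malic enzyme that makes NADPH for the synthase (chromosome 9, 86581371 to 86695953), was the second most abundant of the 10 in every library. It had 48.1 and 61.4 FPKM in DMSO, 42.0 in ACSS2i replicate 1 and 77.2 in ACSS2i replicate 2. The inhibitor libraries stood outside the DMSO range on both sides, and the log2 difference was 0.067 ± 0.35 (SE; interval -0.79 to 0.92).

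Acaca, which encodes the cytosolic acetyl-CoA carboxylase 1 that commits acetyl-CoA to synthesis (chromosome 11, 84129672 to 84401651), had the smallest gap between inhibitor libraries among the tested members. Its values were 8.46 and 10.0 FPKM in DMSO against 8.50 and 10.2 in ACSS2i. The groups were nearly superimposed, with a log2 difference of 0.013 ± 0.24 (SE; interval -0.57 to 0.59). The replicate 2 to replicate 1 ratio was 1.18 in DMSO and 1.20 in ACSS2i. Acacb, the carboxylase 2 at the mitochondrial surface whose malonyl-CoA restrains fatty acid oxidation (chromosome 5, 114146535 to 114250761), had 0.488 and 0.263 FPKM in DMSO against 0.497 and 0.760 in ACSS2i. Both inhibitor values were above both DMSO values, but the lower of them, 0.497, nearly equalled DMSO replicate 1. The low values could be fitted by 51, 8, 35 and 68 reads within 0.5%. That tolerance is loose for counts of this size, so the counts are approximate. Nominal reads were 48.9 and 7.68 in DMSO replicates 1 and 2, and 33.6 and 65.3 in ACSS2i replicates 1 and 2. The gene was below the limit for testing. If DMSO replicate 2 held 8 reads, their 95% Poisson interval is 3.45 to 15.8, for counting error only. Acaca exceeded Acacb 17.3 and 38.1 times in DMSO, and 17.1 and 13.4 times in ACSS2i.

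Fasn, the synthase itself (chromosome 11, 120805846 to 120824547), had 13.5 and 19.1 FPKM in DMSO, 12.8 in ACSS2i replicate 1 and 31.6 in ACSS2i replicate 2. Replicate 1 was just under the lower DMSO library and replicate 2 well above the higher. The log2 difference was 0.31 ± 0.44 (SE; interval -0.77 to 1.39). With Acaca nearly level, the ratio of Fasn to Acaca was 1.60 and 1.90 in DMSO, 1.50 in ACSS2i replicate 1 and 3.11 in ACSS2i replicate 2. Per Srebf1, Fasn was higher in both inhibitor libraries, at 2.50 and 1.76, than in DMSO, at 0.876 and 1.00. In replicate 1 this went with a low Srebf1 of 5.11 FPKM. In replicate 2 it went with a high Fasn, while Srebf1 lay between the DMSO values.

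Elovl6, the elongase that takes palmitate to stearate (chromosome 3, 129532355 to 129638495), had 15.0 and 14.8 FPKM in DMSO, 9.18 in ACSS2i replicate 1 and 22.6 in ACSS2i replicate 2. The DMSO libraries were nearly equal, and the inhibitor libraries lay at -0.64 and 0.57 from the DMSO mean, which left a log2 difference of -0.037 ± 0.41 (SE). Elovl6 made up 19.0% and 19.4% of the summed FPKM of Elovl1 to Elovl7 in DMSO, 14.0% in ACSS2i replicate 1 and 25.5% in ACSS2i replicate 2. Elovl5, an elongase of polyunsaturated chains, was the most abundant of the family at 30.1 and 34.0 FPKM in DMSO against 22.6 and 37.3 in ACSS2i, the same arrangement as Elovl6. Elovl1, for very long saturated chains, had 11.0 and 8.99 FPKM in DMSO against 9.01 and 14.4 in ACSS2i. Elovl4 went the other way between the inhibitor libraries, at 16.2 and 12.5 FPKM in DMSO against 19.8 and 9.81 in ACSS2i. Elovl7 had 6.61 and 5.98 FPKM in DMSO against 5.10 and 4.40 in ACSS2i. Elovl2 was at the floor in all 4 libraries, and Elovl3 in all but DMSO replicate 1, at 0.0948 FPKM.

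Scd2, the stearoyl-CoA desaturase that introduces the double bond of oleate and predominates in brain (chromosome 19, 44293674 to 44306864), was the most abundant of the 10 in every library and the most divergent. It had 201 and 245 FPKM in DMSO, 93.3 in ACSS2i replicate 1 and 411 in ACSS2i replicate 2. The inhibitor libraries differed 4.41 times, against 1.22 times for the DMSO libraries, and on the log2(FPKM + 1) scale this inhibitor gap was larger, in either direction, than that of 98.9% of tested genes. The group difference was -0.18 ± 0.67 on the log2 scale (SE; interval -1.81 to 1.46), so a change of either sign by more than 2-fold lies within the interval. Scd2 took 56.9% and 56.3% of the summed FPKM of the 10 genes in DMSO, 44.2% in ACSS2i replicate 1 and 61.1% in ACSS2i replicate 2.

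Scd1, the main desaturase of liver and fat (chromosome 19, 44394455 to 44407879), was hardly detected, at 0.0514 and 0.117 FPKM in DMSO against 0.127 and 0.140 in ACSS2i. These values correspond to 3, 2, 5 and 7 reads, with 95% Poisson intervals of 0.619 to 8.77, 0.242 to 7.22, 1.62 to 11.7 and 2.81 to 14.4 reads. Both inhibitor values were higher, which was not resolvable at this depth. Of the summed FPKM of Scd1 to Scd4, Scd2 held between 97.1% and 99.5% in every library. Scd3 had 3.57 and 3.08 FPKM in DMSO against 2.16 and 2.04 in ACSS2i, and Scd4 was between 0.0323 and 0.581 FPKM. The 4 desaturases are similar genes in a row on chromosome 19, and how reads that fit several of them were assigned is not given in the sources used here, so the low values of Scd1, Scd3 and Scd4 are uncertain. Acacb and Acaca lie apart, on chromosomes 5 and 11, but how reads that fit both were assigned is likewise not given.

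Fads2, the delta-6 desaturase that opens the route to long polyunsaturated fatty acids (chromosome 19, 10062765 to 10101746), had 28.3 and 37.6 FPKM in DMSO, 19.1 in ACSS2i replicate 1 and 65.2 in ACSS2i replicate 2. Fads1, the delta-5 desaturase of the same route (chromosome 19, 10182888 to 10196877), had 23.2 and 27.9 FPKM in DMSO, 20.3 in ACSS2i replicate 1 and 36.0 in ACSS2i replicate 2. Both genes had replicate 1 lowest and replicate 2 highest, with the wider spread in Fads2. The inhibitor libraries differed 3.41 times in Fads2 and 1.77 times in Fads1, against 1.33 and 1.20 times for the DMSO libraries. Log2 differences were 0.12 ± 0.55 and 0.088 ± 0.32 (SE). The order of the pair changed with the library: Fads2 over Fads1 was 1.22 and 1.35 in DMSO, 0.943 in ACSS2i replicate 1 and 1.81 in ACSS2i replicate 2.

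Fads3, the third gene of this cluster (chromosome 19, 10041569 to 10060110), lies 2654 bases from Fads2 and is not among the 10. It had 24.9 and 30.6 FPKM in DMSO against 9.97 and 13.4 in ACSS2i. In contrast to its neighbours it was lower in both inhibitor libraries, at -1.38 and -0.996 from the DMSO mean. The log2 difference was -1.19 ± 0.26 (SE; limma, unadjusted p = 0.00354, adjusted p = 0.458), which did not pass. The ratio of Fads2 to Fads3 was 1.14 and 1.23 in DMSO against 1.92 and 4.88 in ACSS2i, outside the DMSO range in both inhibitor libraries.

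**Figure D2:**
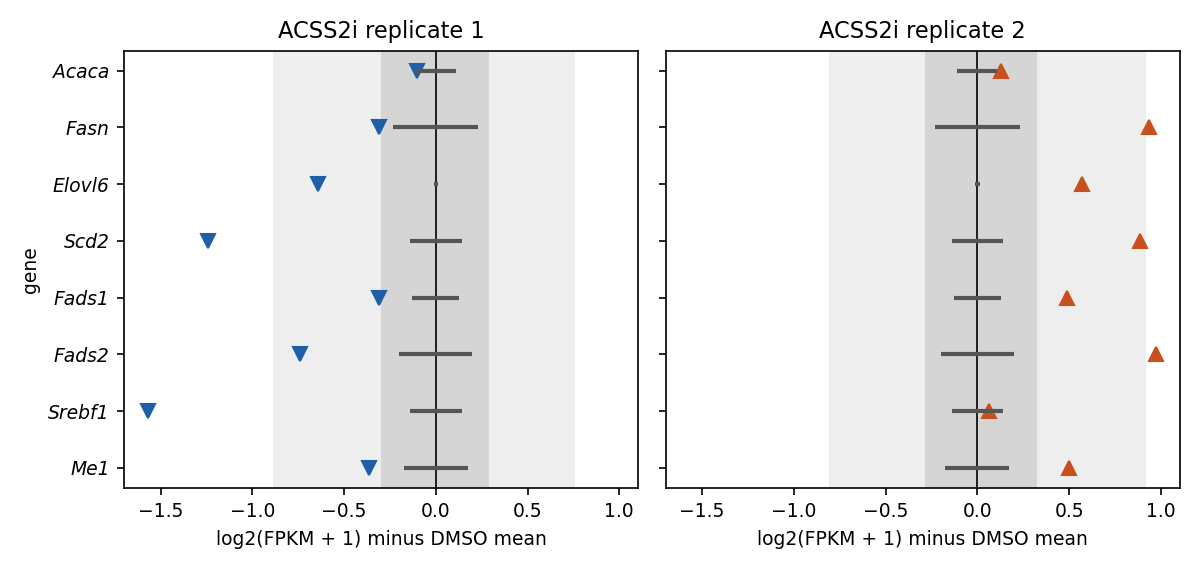
Log2(FPKM + 1) of the 8 tested genes minus the DMSO mean, in ACSS2i replicate 1 (left) and replicate 2 (right); horizontal bars span the DMSO libraries, and the dark and light bands hold the middle 50% and 90% of all tested genes. Srebf1 is lowest in replicate 1 at -1.57 and inside the DMSO span in replicate 2.

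By level, Scd2 and Me1 came first and second in all 4 libraries, and Acacb and Scd1 last. Fads2 and Fads1 followed Me1, with adjoining ranges in DMSO (28.3 to 37.6 and 23.2 to 27.9 FPKM) and the reverse order in ACSS2i replicate 1. In DMSO, Srebf1 (15.5 to 19.0 FPKM) was above Elovl6 (14.8 to 15.0 FPKM) in both libraries, and the range of Fasn (13.5 to 19.1 FPKM) took in both. In both inhibitor libraries Srebf1 was below Elovl6. Acaca was below them except in ACSS2i replicate 1, where Srebf1 was lower.

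The size of the gap between inhibitor libraries ordered the members differently from their level. On the log2(FPKM + 1) scale, replicate 2 minus replicate 1 was 2.13 for Scd2, 1.72 for Fads2, 1.64 for Srebf1, 1.24 for Fasn, 1.21 for Elovl6, 0.86 for Me1, 0.80 for Fads1 and 0.23 for Acaca. All 8 were positive, where 51.6% of tested genes were, and the median was 1.23 against 0.022. In DMSO the same difference ran from -0.025 to 0.46, with a median of 0.28 against -0.00018. The nominal reads behind each tested member were at least 169 per library. Whether the spread differed between the groups was not tested.

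**Figure D3:**
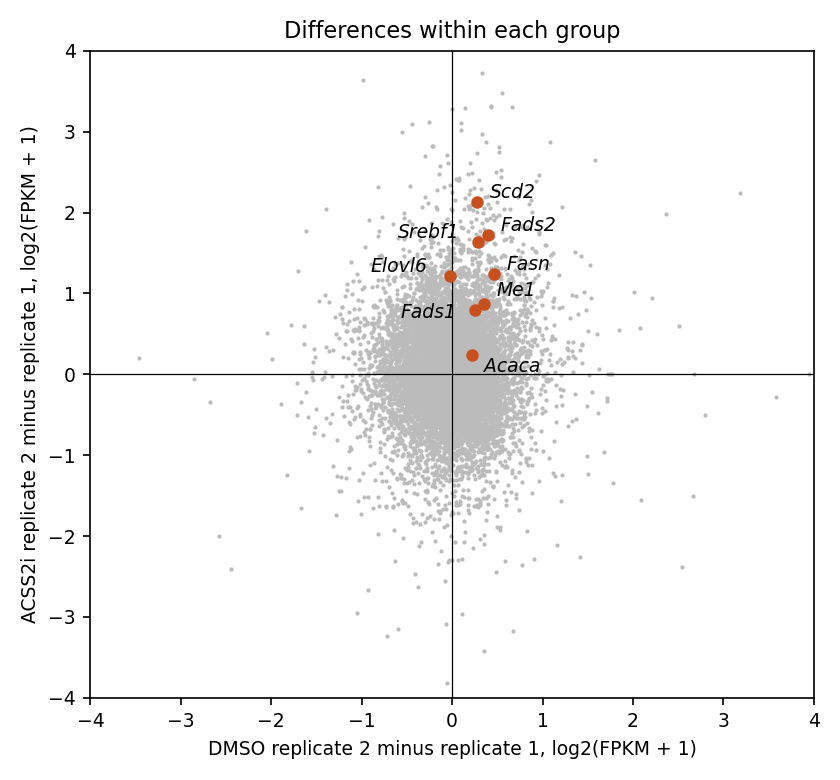
Replicate 2 minus replicate 1 in log2(FPKM + 1), for DMSO (horizontal) and ACSS2i (vertical); grey points are all tested genes except 75 outside the axes, and orange points the 8 tested members. All 8 members lie above 0 on the vertical axis, from 0.23 for Acaca to 2.13 for Scd2.

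Other genes of the pathway were compared by lists. In the supply of cytosolic acetyl-CoA and NADPH, 12 of 13 genes were tested, 0 passed in either direction, and 11 had a positive log2 difference, with a median of 0.48. ACSS2i replicate 2 was above both DMSO libraries in 11 of the 12, against 39.0% of all tested genes. Replicate 1 was below both in 3, against 36.8%. Acss2, the target of the inhibitor, had 11.7 and 10.0 FPKM in DMSO against 12.8 and 26.6 in ACSS2i (adjusted p = 0.785). Acly, ATP-citrate lyase, had 59.4 and 74.9 FPKM in DMSO, 46.6 in ACSS2i replicate 1 and 143 in ACSS2i replicate 2. Slc25a1, the citrate carrier that feeds it, had 27.0 and 30.7 FPKM in DMSO against 23.5 and 70.4 in ACSS2i. Acly and Slc25a1 thus had the same arrangement as Fasn, but both were named after their values were seen. It was found in 3 of the 12 tested genes of this list, against 11.8% of all tested genes. The log2 differences of Tkt (a pentose phosphate enzyme), Pcx (pyruvate carboxylase) and Idh1 (an NADPH-making isocitrate dehydrogenase) were 0.74, 0.85 and 1.04, with both inhibitor libraries above both DMSO libraries. These averages also covered unequal libraries: relative to the DMSO mean, Tkt was at 0.46 in ACSS2i replicate 1 and 1.02 in replicate 2, Pcx at 0.39 and 1.32, and Idh1 at 0.33 and 1.75. Their unadjusted p by limma was 0.0511, 0.0577 and 0.0670, and their adjusted p was 0.724, 0.736 and 0.751. The 3 genes were named for having among the smallest p of this list. Both inhibitor libraries were above both DMSO libraries in 4 of the 12 tested genes, against 19.0% of all tested genes.

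Of 17 tested genes of elongation and other desaturases, 0 passed, 5 were positive and 12 negative, with a median of -0.086. In 5 of the 17, both inhibitor libraries were below both DMSO libraries, against 18.3% of all tested genes. Besides Fads3, these 5 included Degs1 (a ceramide-forming desaturase), Scd3 and Elovl7. Their log2 differences were -0.42, -0.48 and -0.34, with adjusted p by limma from 0.791 to 0.816. Fads6, a further desaturase family gene, had overlapping groups, at 19.4 and 13.2 FPKM in DMSO against 14.0 and 11.7 in ACSS2i. In the separate mitochondrial fatty acid synthesis route, 0 of 9 passed, 7 were positive, and the median was 0.12. Mecr, its enoyl reductase, and Lias, the lipoate synthase it serves, had log2 differences of 0.40 and 0.37.

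Of 17 tested genes of SREBP processing and partners, 0 passed, 8 were positive and 9 negative, with a median of -0.093. Mbtps1 and Mbtps2 encode the proteases that cut SREBPs free. Mbtps1 had 39.7 and 34.7 FPKM in DMSO against 23.0 and 26.3 in ACSS2i, and Mbtps2 had 35.8 and 38.1 in DMSO against 18.4 and 27.4 in ACSS2i. Both were lower in both inhibitor libraries, at unadjusted p = 0.0465 and 0.0426 by limma (adjusted p = 0.712 and 0.703). At an unadjusted p under 0.05, 3.67% of all tested genes were lower. Insig1, which retains SREBPs in the endoplasmic reticulum and is itself a target of them, had 22.3 and 15.1 FPKM in DMSO, 17.5 in ACSS2i replicate 1 and 72.5 in ACSS2i replicate 2. Rxra, a nuclear receptor partner, had a log2 difference of -0.74.

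Among 13 tested regulators of the carboxylases and the synthase, 0 passed, and 7 were positive. The largest difference was that of Brca1, a DNA repair gene whose protein also binds phosphorylated acetyl-CoA carboxylase, at 1.03 and 1.27 FPKM in DMSO against 4.36 and 6.16 in ACSS2i (log2 difference 1.53, adjusted p = 0.420). Prkag2, a subunit of the kinase AMPK that phosphorylates the carboxylases, had 0.54. In glycerolipid assembly, which uses the finished fatty acids, 0 of 14 passed, 11 were negative, and the median was -0.18. Dgat2, the last enzyme of triglyceride synthesis, had 4.03 and 6.78 FPKM in DMSO against 3.16 and 1.67 in ACSS2i, and Agpat2 had a log2 difference of -0.54 (adjusted p = 0.708 and 0.739). Here ACSS2i replicate 2 was below both DMSO libraries in 10 of the 14 genes, against 37.0% of all tested genes. The arrangement seen in Fasn and Scd2 was found in 0 of the 14, against 11.8% of all tested genes. Its mirror image was found in 4 of the 14, against 11.4%. Neither count was tested, and the list is small.

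**Figure D4:**
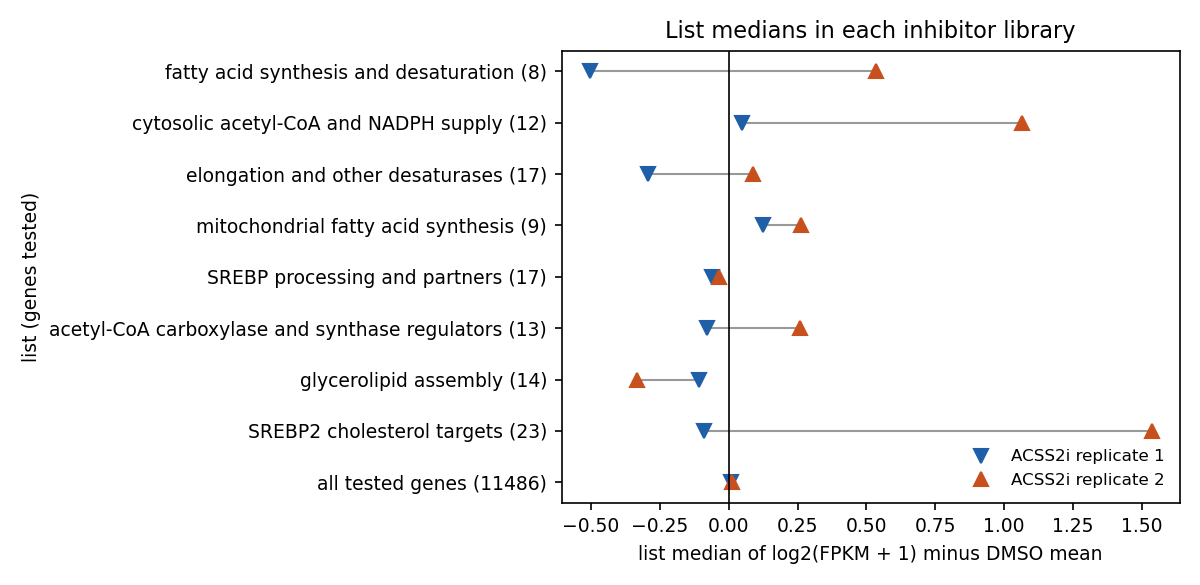
Median over the tested genes of each list of log2(FPKM + 1) minus the DMSO mean, in ACSS2i replicate 1 (downward triangle) and replicate 2 (upward triangle). The members' medians, -0.50 and 0.53, lie on both sides of 0, while the cholesterol list lies at -0.089 and 1.54.

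The genes of cholesterol synthesis and other SREBP-2 targets were also high in ACSS2i replicate 2. All 23 tested cholesterol genes were above both DMSO libraries in ACSS2i replicate 2, against 39.0% of all tested genes. In ACSS2i replicate 1, 11 of the 23 cholesterol genes were below both, against 36.8%. The median of the 23 was 1.54 in replicate 2 and -0.089 in replicate 1, beside 0.53 and -0.50 for the fatty acid genes. Fdft1, Nsdhl and Fdps had the log2 differences 1.24, 1.47 and 1.46, and 0 of the 23 passed (smallest adjusted p = 0.727). In ACSS2i replicate 1 these genes were at 0.44, 0.42 and 0.21 from the DMSO mean, and in replicate 2 at 2.04, 2.51 and 2.71, so most of each difference came from replicate 2. Whether the 2 lists differ from each other was not tested.

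Other gene groups also separated these libraries. Of 18 tested neuronal and catecholaminergic markers, 14 had ACSS2i replicate 1 below both DMSO libraries, against 36.8% of all tested genes. The arrangement of Fasn and Scd2 was found in 9 of these markers, against 11.8% of all tested genes. The medians of the tested markers were -0.58 in replicate 1 and 0.17 in replicate 2. The summed FPKM of the neuronal and catecholaminergic markers was 8349 and 11630 in DMSO against 5401 and 4583 in ACSS2i. These sums mostly follow Chgb, which had 6801 and 10010 FPKM in DMSO against 4453 and 2509 in ACSS2i. By count, ACSS2i replicate 2 was above both DMSO libraries in 11 of the 18 and below both in 5. The shares of all tested genes were 39.0% and 37.0%. All 25 cell division markers were above both DMSO libraries in both inhibitor libraries, against 19.0% of all tested genes. Their medians were 1.33 and 2.35, and their summed FPKM was 94.1 and 145 in DMSO against 291 and 532 in ACSS2i. Mki67, the proliferation marker Ki-67, had 1.18 and 4.13 FPKM in DMSO against 22.2 and 24.9 in ACSS2i. The division markers were thus high in both inhibitor libraries, where the fatty acid genes were high in replicate 2. The part of neuronal markers, division markers and library totals in the members' values was not tested.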

How the data were processed

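RNA sequencing was available for 2 DMSO and 2 ACSS2i libraries of CAD cells. Per the submitters' processing notes, tools were Cufflinks 2.2.1 with Cuffdiff, STAR 2.3.0 and bcl2fastq 02.14.01.07, and the build was mm10. Annotation and scaling: not given in the sources used here. Deposited values were taken as FPKM because those notes name Cufflinks; the header gives no unit, and the adjustment in the table's name is unexplained. Values of 0.01 are a floor. Of 24341 genes, 24340 had a value in every library, and the 11486 with a mean of at least 1 FPKM were tested on log2(FPKM + 1) with limma 3.58.1 (R 4.3.3; mean-variance trend, two-sided, Benjamini-Hochberg adjustment over all tested genes, threshold 0.05). With 2 libraries a group, the smallest two-sided p of an exact permutation test is 0.333. Log2 differences on this scale understate changes of low genes. The test was tried on simulated data first.

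Relative depth was read from the most common ratio of low values between libraries, and nominal read numbers from genes with a single transcript in GENCODE M21. These numbers carry the error of assumed lengths. Gene coordinates are from GENCODE M21 and promoter sequences from RefSeq (GRCm38.p6), both on the build the notes name. Alternatives were the filter, the pseudocount, the scaling, the variance model, a replicate block and leaving out each library. The 10 genes and the comparison lists were chosen with earlier results of these data known. All 10 genes were named whatever their values. Beyond them, up to 4 genes with the smallest p were eligible from each comparison list, along with the paralogs of the 10 genes, Acss2, Insig1, Srebf2 and Mki67. Acly, Slc25a1, Fads6 and Ttr were named after their values were seen. The untested markers Dbh, Adipoq, Fabp4, Lep and Alb were also named outside this rule.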

Additional observations from a re-analysis of the deposited data

How the results depend on the processing

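In every alternative run that kept all 4 libraries, 0 of the fatty acid genes passed an adjusted p of 0.05 by limma. In these runs 6 of them had ACSS2i replicate 1 below and replicate 2 above both DMSO libraries. This was 6 of 8, or 6 of 10 without a filter, against 6.08% to 12.9% of all genes tested. With a DMSO library left out, only the remaining DMSO library had to be passed, which is easier to meet. The arrangement was then held by 7 of 8. Its share of all genes was 19.3% without DMSO replicate 1 and 19.2% without DMSO replicate 2. Over all genes 3 passed as reported, 0 without a filter, 6 with a pseudocount of 0.1, 0 with a pseudocount of 5, 5 with libraries rescaled to the same sum, 8 with the replicate block and 17 to 38 with a library left out. Fits with a library left out take the spread from the intact pair. Nothing in the labels says whether same-numbered libraries belong together. Their deviations had a correlation of -0.0165 across all tested genes, a value that cannot settle this for a part of the genes. The block changed no call among the fatty acid genes. The cause of these changes was not tested.

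Directions of the fatty acid genes turned on which library was left out. The median log2 difference over them ran from -0.50 (without ACSS2i replicate 2) to 0.53 (without ACSS2i replicate 1). The ranges over the libraries left out were -0.10 to 0.13 for Acaca, -0.31 to 0.94 for Fasn, -0.64 to 0.57 for Elovl6, -1.24 to 0.89 for Scd2 and -0.31 to 0.49 for Fads1. They were -0.74 to 0.98 for Fads2, -1.57 to 0.066 for Srebf1 and -0.36 to 0.50 for Me1. Each of these ranges ends at the fits without an inhibitor library, but 4 genes were also negative without DMSO replicate 1: Acaca (-0.096), Fads1 (-0.039), Fads2 (-0.081) and Me1 (-0.11). Elovl4 was positive in that fit (0.15). Outside the 10 genes they were -0.51 to 1.08 for Acly, -0.28 to 1.26 for Slc25a1, -0.48 to 0.22 for Elovl5, -0.13 to 0.49 for Elovl1, -0.49 to 0.45 for Elovl4, -0.070 to 1.92 for Insig1 and -0.88 to 0.34 for Srebf2. Fads3 stayed negative, from -1.38 to -0.996. Tkt (0.46 to 1.02), Pcx (0.39 to 1.32), Idh1 (0.33 to 1.75), Fdft1 (0.44 to 2.04), Nsdhl (0.42 to 2.51) and Fdps (0.21 to 2.71) stayed positive. Acaca was also negative with libraries rescaled to the same sum (-0.039) and with median-of-ratios scaling (-0.0045). The other 327 values of named genes under alternatives that kept all libraries had the direction and side of the threshold reported. Ttr was not among these genes. Depth limits Scd1 and Acacb, which rest on few reads and were not tested.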
